A study of Mus musculus with 20 samples.

Results

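The regions described here are the H3K27me3 peaks of mouse embryonic fibroblasts (MEFs) that coincided in position with peaks of the transcription factor KLF4 in cells under reprogramming. They were chosen by their coordinates in the peak lists: a peak of untreated Jmjd3+/+ MEFs was included if it shared at least 1 bp with a KLF4 peak in either of 2 lists made at day 5 of reprogramming. Of the 6954 MEF peaks, 307 met this rule (4.41%), and they are called KLF4-overlapped peaks below. The other 6647 are called other MEF peaks.

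H3K27me3, the trimethylation of lysine 27 on histone H3, is placed by the Polycomb complex PRC2 and marks silent genes, among them regulators of development and genes of other cell lineages. JMJD3, the product of Kdm6b, is an enzyme that removes this methylation. KLF4 is a zinc-finger factor that binds GC-rich DNA, is active in epithelia, and belongs, with Oct4, Sox2 and c-Myc, to the 4 factors (OSKM) that turn fibroblasts into pluripotent cells.

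The data were peak lists from chromatin immunoprecipitation with sequencing (ChIP-seq), with 14 libraries out of 20 samples and 1 library per group. H3K27me3 was measured in 10 of them, from untreated MEFs of Jmjd3+/+ (WT) or Jmjd3-/- (KO) genotype and from cells of both genotypes at day 5 and day 10 after viral OSKM, with either a FLAG control or Jmjd3 overexpression. KLF4 was measured in WT cells at day 5 with FLAG or with JMJD3, and FLAG-tagged JMJD3 in WT cells at day 5 with OSKM or with a lower dose of Klf4 (OSlowKM). The medium after infection contained vitamin C. All WT groups carried the strain label C57BL/6J-OG2, in which OG2 is an Oct4-GFP reporter, and all KO groups the label C57Bl6J, so genotype and strain label cannot be told apart. In KO cells with Jmjd3 overexpression the exogenous enzyme was the only JMJD3, and in WT cells it was added to the endogenous one. With 1 library per group no difference had a replicate check and no p-value was computed. Ranges in parentheses are 95% intervals (Wilson for shares, Newcombe for differences). They reflect the number of peaks alone and treat peaks as independent, which adjacent peaks are not.

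The sequence under KLF4 is shown first for a few of these peaks, because the motif that KLF4 recognises was present at some of them and absent at others. Windows of 201 bases centred on the KLF4 interval are printed for 5 peaks on the plus strand of GRCm38, with each match to the KLF motif in capitals. The motif was searched on both strands in its 4 forms, GGGCGGGGC, GGGTGGGGC, GGGCGTGGC and GGGTGTGGC, of which the first is also a GC box read by SP factors. Bmp8b encodes a secreted BMP ligand, Cdkn1c an inhibitor of cyclin-dependent kinases and Cbx7 a subunit of the Polycomb complex PRC1. Gsx1 encodes a homeobox factor of the developing brain and Hes3 a repressor of the Notch pathway.
Bmp8b (chr4:123104666-123104866): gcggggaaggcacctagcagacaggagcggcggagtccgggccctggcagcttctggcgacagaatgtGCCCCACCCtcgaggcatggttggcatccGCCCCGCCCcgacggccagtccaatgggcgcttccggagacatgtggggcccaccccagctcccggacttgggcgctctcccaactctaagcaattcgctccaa
Cdkn1c (chr7:143459577-143459777): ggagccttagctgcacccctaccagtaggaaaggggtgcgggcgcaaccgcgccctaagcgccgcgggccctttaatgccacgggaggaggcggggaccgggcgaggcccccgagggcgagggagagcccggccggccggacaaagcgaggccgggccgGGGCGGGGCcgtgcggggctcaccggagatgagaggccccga
Cbx7 (chr15:79932686-79932886): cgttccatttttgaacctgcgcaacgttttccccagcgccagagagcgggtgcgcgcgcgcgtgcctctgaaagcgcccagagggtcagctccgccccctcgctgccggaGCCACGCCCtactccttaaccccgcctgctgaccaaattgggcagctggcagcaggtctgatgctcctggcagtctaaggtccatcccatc
Gsx1 (chr5:147188475-147188675): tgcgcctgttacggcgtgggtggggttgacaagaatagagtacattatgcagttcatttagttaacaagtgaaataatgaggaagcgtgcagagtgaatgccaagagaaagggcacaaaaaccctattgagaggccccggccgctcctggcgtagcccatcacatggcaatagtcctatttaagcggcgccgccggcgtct
Hes3 (chr4:152290510-152290710): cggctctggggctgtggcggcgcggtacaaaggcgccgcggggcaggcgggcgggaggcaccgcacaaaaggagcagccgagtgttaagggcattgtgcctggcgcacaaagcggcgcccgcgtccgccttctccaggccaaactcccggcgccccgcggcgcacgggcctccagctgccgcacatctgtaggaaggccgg
For 4 further peaks the first motif is shown with 10 bases on each side. St14 encodes matriptase, a membrane protease of epithelia, and Spint1 its inhibitor HAI-1. Podxl encodes podocalyxin, a surface sialomucin, and Hhex a homeobox factor of endoderm and blood.
St14 (chr9:31131815-31131843): ggtagtttcaGGGTGTGGCctccagggtc
Spint1 (chr2:119237296-119237324): caaccggcgtGGGCGGGGCcggcggcgca
Podxl (chr6:31563963-31563991): cggcggggtcGGGCGGGGCggcggctggg
Hhex (chr19:37434753-37434781): accgagcgcgGCCCCACCCcgcggctgcc

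Among the 307 KLF4-overlapped peaks, 140 overlapped a KLF4 peak in both day 5 lists, 148 only in the list of cells with JMJD3 and 19 only in the list of cells with FLAG. In all, 162 of 10655 KLF4 peaks of FLAG cells and 296 of 14391 of JMJD3 cells lay on MEF peaks. Merging the KLF4 peaks of both lists gave 318 intervals on the 307 peaks, and 290 peaks held a single interval. Each H3K27me3 peak spanned 1000 bp. The shared stretch had a median of 260 bp (range 5 to 1000). In 248 peaks the midpoint of the merged KLF4 interval nearest to the peak centre lay inside the H3K27me3 peak. It was often off centre, with a median of 286 bp from the peak centre and 126 peaks within 250 bp. At the edge of the rule, the shortest overlaps were 5 bp at Dkkl1, 6 bp at Mcf2l and 7 bp at Kndc1, whereas peaks at Hdgfl3 and Rims3 lay 1 bp outside a KLF4 peak and one at Kcnh2 10 bp outside. These 6 peaks were singled out for their distance. A further 168 of the other MEF peaks (2.53%) had a KLF4 peak within 500 bp.

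The KLF4-overlapped peaks had higher peak-caller scores in MEFs than the other MEF peaks, with a median of 24.5 (range 6.58 to 200) against 11.6. The list of MEFs was part of the rule, so this is a description. By quartile of the score over all MEF peaks, from lowest to highest, 39, 46, 73 and 149 of them fell in each. The comparisons below are therefore also given among peaks of like score.

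These peaks sat close to transcription start sites (TSSs). The peak midpoint lay within 1 kb of a TSS in 203 of 307 (66.1%, 60.7 to 71.2), against 28.9% of the other MEF peaks and 30.6% of all MEF peaks. The difference was 37.2 points (31.6 to 42.4). Within 5 kb the shares were 81.1% and 57.3%, with 58.4% of all MEF peaks, a difference of 23.8 points (18.9 to 27.9). The midpoint was 0 to 1000 bp downstream of the TSS in 144 peaks (46.9%) and up to 1000 bp upstream in 59 (19.2%), against 19.6% and 9.27% of the other MEF peaks, so both groups had more peaks downstream. The median distance was 447 bp, against 3313 bp for the other MEF peaks.

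**Figure D1:**
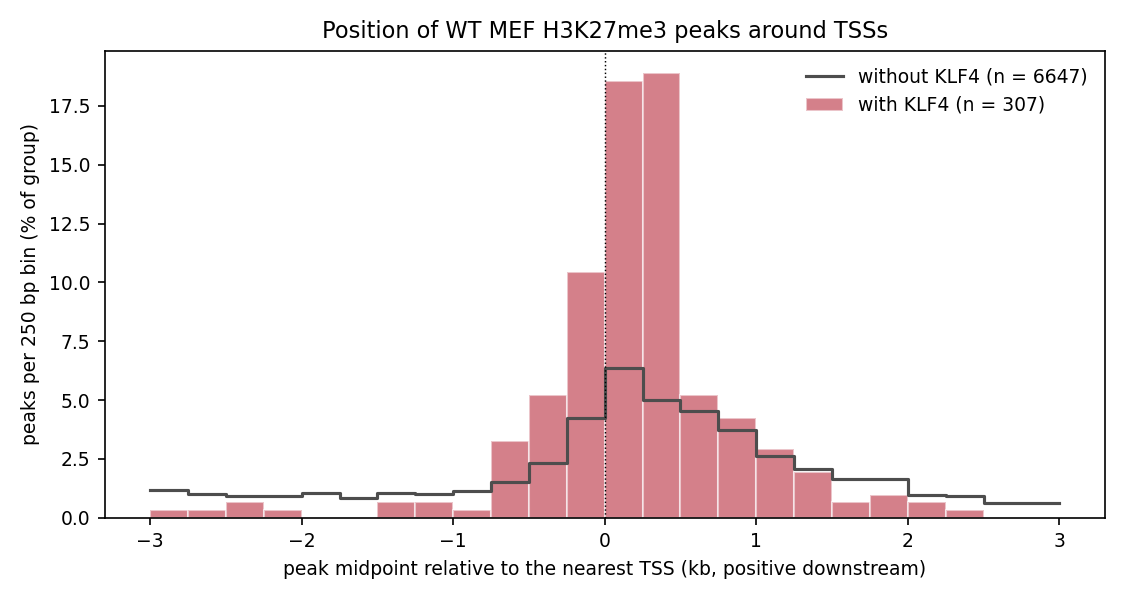
Midpoints of WT MEF H3K27me3 peaks around the nearest TSS in bins of 250 bp (x axis in kb, positive downstream), as percent of the 307 peaks with KLF4 (bars) and of the 6647 without (line). The bins from 0 to 500 bp downstream hold 18.6% and 18.9% of the peaks with KLF4 and 6.38% and 5.02% of those without.

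By annotation, 109 midpoints (35.5%, against 18.4% of the other MEF peaks and 19.1% of all) were exonic, 127 (41.4% against 41.0%) intronic and 71 (23.1% against 40.6%, with 39.8% of all) intergenic. The nearest TSS belonged to a protein-coding gene at 243 peaks, and the 307 peaks had 298 distinct nearest genes. The 1000 bp under the peaks had a median GC content of 60.5%, against 51.3% elsewhere. The ratio of observed to expected CpG dinucleotides had a median of 0.646 against 0.333. A CpG ratio over 0.6 with GC over 50%, the composition of CpG islands, was found at 164 peaks (53.4%, 47.8 to 58.9), against 17.7% of the other MEF peaks and 19.3% of all. Repeats covered little of them: the median soft-masked share was 7.0% against 10.9%. More than 50% of the bases were soft-masked in 9 peaks (2.93%, 1.55 to 5.48), against 2.47% of the other MEF peaks and 2.49% of all, with a difference of 0.46 points (-0.97 to 3.03).

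Among the gene lists with over 10 genes that had a MEF peak, the epithelial list had the highest share of genes with KLF4 on the peak. It mixes adhesion and keratin genes with transcription factors, a protease and protease inhibitors of epithelia. Of 25 listed epithelial genes with any MEF peak within 5 kb of a TSS, 9 had a KLF4-overlapped peak (36%), against 236 of 3140 protein-coding genes (7.52%). These counts were not tested, and the gene lists were chosen with earlier results of these data known. The 9 genes were Cldn7, a claudin of tight junctions, Pkp1 and Dsg2 of the desmosome, Krt8, a keratin of simple epithelia, Ovol1 and Ovol2, zinc-finger repressors that maintain epithelial state, St14, and the protease inhibitors Spint1 and Spint2. Of 101 listed homeobox genes with a MEF peak, 4 had one (Hoxd1, Nkx2-3, Dlx4 and Gsx1, 3.96%), as had 2 of 56 listed GATA, SOX, FOX, T-box and bHLH genes (Gata2 and Foxq1, 3.57%). These lists do not hold every gene of their families. KLF4-overlapped peaks were also found near the homeobox genes Hhex, Tlx2, Gsc2 and Mnx1, the forkhead gene Foxi3 and the bHLH genes Hes3 and Heyl, which are not listed, so no share of a whole family is given. Mnx1, Foxi3 and Heyl were named after their values were seen. Of 44 listed genes for Wnt, Bmp, Fgf and hedgehog signalling, 4 did (Wnt2b, Wnt11, Bmp8b and Fgf15, 9.09%). Among 18 pluripotency genes there were 4 (22.2%), Pou5f1, Sox2, Klf4 and Tfcp2l1, all factors of the pluripotency network and all with MEF scores of 7.96 to 11.1. The first 3 are themselves carried by the OSKM viruses, so reads from the viral copies cannot be told apart from those of the gene in the cells after infection. Their KLF4 peaks, JMJD3 positions and later H3K27me3 peaks are given with that limit. Of the 4 genes Tfcp2l1 alone is not carried, so the share of 22.2% rests mostly on genes with that limit. Klf4 was called in all 10 lists, Sox2 in 9, Pou5f1 in 3 and Tfcp2l1 in 2. Cdkn1c was 1 of 2 CDK inhibitor genes and Cbx7 1 of 7 Polycomb and H3K27 demethylase genes, while none of 6 fibroblast identity genes and none of 7 KLF and SP genes other than Klf4, which was placed in the pluripotency list, had such a peak.

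Of the 9 epithelial peaks, 7 were called at day 5 with FLAG in each genotype, where 73.9% (WT) and 69.4% (KO) of all KLF4-overlapped peaks and 55.6% and 51.5% of all MEF peaks were called. With JMJD3 the number was 5 in WT cells and 6 in KO cells, beside 44.3% and 58.6% of the KLF4-overlapped peaks and 45.3% and 53.2% of all. The day 10 number was 6 with FLAG and 2 with JMJD3 in WT cells, where 41.2% and 28.4% of all MEF peaks were called. In KO cells at day 10 it was 4 with each, beside 43.5% and 41.1% of all MEF peaks. Nothing particular to epithelial genes is read from these counts of 9. The MEF scores of these peaks ran from 11.9 at Spint2 to 119 at Cldn7. Cldn7 (chr11:69965340-69966339, exonic, 444 bp downstream of the TSS) and Ovol1 (chr19:5559702-5560701, exonic, score 107) had a peak in all 10 lists. Pkp1 (chr1:135918916-135919915, 209 bp upstream of the TSS, score 44.0) was called in MEFs of both genotypes and in both day 5 FLAG lists, and in no list with JMJD3 and no day 10 list. St14 (chr9:31131072-31132071, exonic, 281 bp downstream, score 80.3) was absent with JMJD3 in WT cells at day 5 and present with JMJD3 in KO cells. Ovol2 and Spint1 were called in 9 lists, all but WT day 10 with JMJD3. Dsg2 was called in 7 lists, with none at day 10 except WT with FLAG. Krt8 (intronic, 1564 bp from its TSS) was called in the 2 MEF lists only, and Spint2 in WT MEFs only.

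Other named genes showed a similar range. Hoxd1, a homeobox gene of the anterior HoxD cluster, Wnt2b and Fgf15 were called in all 10 lists. Dlx4, a homeobox gene of the distal-less family (chr11:95143390-95144389, score 84.6), and Gsx1 (score 28.8) were called with FLAG and not with JMJD3 at day 5 in both genotypes, and Dlx4 was called in all 4 day 10 lists. Cdkn1c (chr7:143459349-143460348, score 29.1) was missing from the WT day 5 list with JMJD3 and present in the other 9 lists. Bmp8b (score 80.5) kept its call with JMJD3 in WT cells at day 5 and was absent with JMJD3 from the other 3 comparisons. Cbx7 (score 8.40) and Nkx2-3 (score 22.2) were called in WT MEFs only. Of the 25 listed-gene peaks, 18 were called with FLAG and 12 with JMJD3 at day 5 in WT cells, and 19 and 15 in KO cells, shares near those of all KLF4-overlapped peaks given above.

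**Figure D2:**
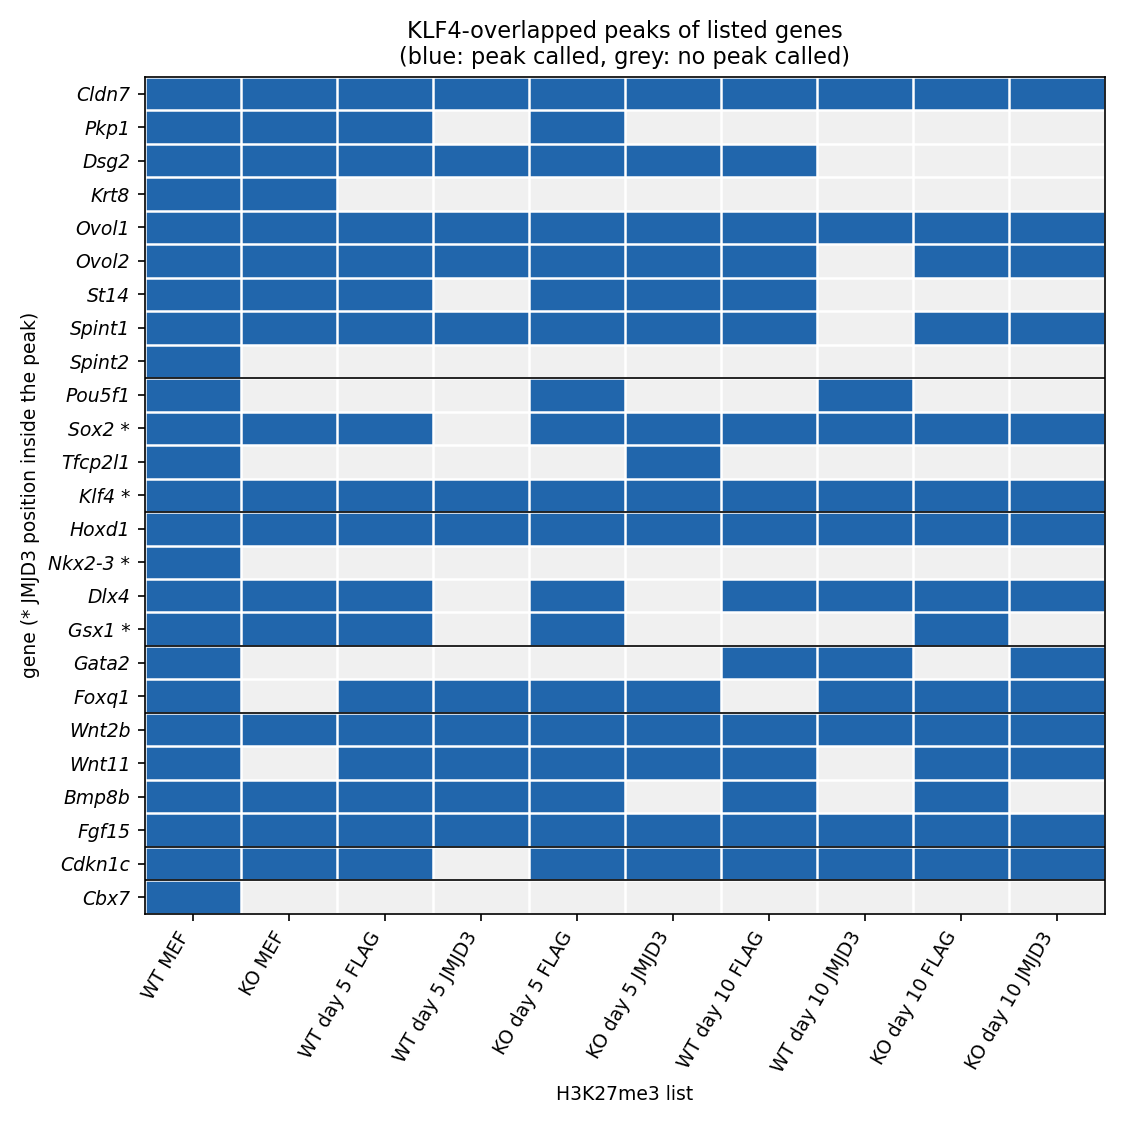
Calls at the 25 KLF4-overlapped peaks of listed genes (rows) in the 10 H3K27me3 lists (columns), blue where a peak was called and grey where none was. Lines separate the gene lists, and asterisks mark the 4 peaks with a JMJD3 position inside (Sox2, Klf4, Nkx2-3 and Gsx1). Sox2 and Klf4 are also carried by the viruses. In the WT day 5 columns 18 peaks were called with FLAG and 12 with JMJD3.

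The next comparison asked what became of the mark at these peaks. In the 4 FLAG lists and the KO MEF list, KLF4-overlapped peaks were called more often than other MEF peaks. At day 5 with FLAG, 227 of 307 were called in WT cells (73.9%, 68.8 to 78.5) against 54.7% of the other MEF peaks and 55.6% of all, a difference of 19.2 points (13.9 to 24.0). In KO cells 213 were called (69.4% against 50.6%, with 51.5% of all), 18.7 points (13.2 to 23.8) more. At day 10 with FLAG, 166 were called in WT cells (54.1% against 40.6%, with 41.2% of all) and 182 in KO cells (59.3% against 42.8%, with 43.5% of all). In KO MEFs 197 were called (64.2% against 42.4%, with 43.3% of all). As means over quartiles of CpG content the 4 FLAG differences were smaller and their intervals span 0, at 7.04 points (-1.68 to 14.9) in WT and 7.85 points (-0.87 to 15.8) in KO cells at day 5, and 4.36 points (-3.57 to 13.0) and 4.81 points (-3.15 to 13.4) at day 10. The WT day 10 interval also spans 0 as a mean over score quartiles (4.43 points, -1.03 to 10.6), with KLF4 in both lists (5.21 points, -2.74 to 13.3) and within 5 kb of a TSS (5.34 points, -1.07 to 11.6).

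Over all peaks, this excess was smaller or absent with JMJD3. In WT cells at day 5, 136 of 307 were called (44.3%, 38.8 to 49.9), against 45.3% of the other MEF peaks and 45.3% of all, a difference of -0.999 points (-6.58 to 4.72). In KO cells at day 5 it was 180 (58.6% against 52.9%, with 53.2% of all), with a difference of 5.71 points (-0.0039 to 11.2). At day 10 it was 109 in WT cells (35.5% against 28.0%, with 28.4% of all) and 155 in KO cells (50.5% against 40.7%, with 41.1% of all), differences of 7.46 points (2.2 to 13.1) and 9.81 points (4.12 to 15.5). The day 10 differences changed direction with the MEF score. From the lowest to the highest score quartile they were 15.4, 17.0, -6.75 and -18.7 points in WT cells and 11.4, 23.4, -10.6 and -17.9 points in KO cells, which average to 1.74 points (-3.08 to 8.03) and 1.57 points (-3.91 to 7.89). Among peaks within 5 kb of a TSS they were -0.844 points (-6.76 to 5.48) and 0.346 points (-6.04 to 6.67). With KLF4 required in both lists and as means over CpG quartiles their intervals also span 0. These CpG means were 7.60 points (-0.087 to 15.8) in WT and 5.54 points (-2.50 to 12.9) in KO cells. They were not below the FLAG means of 4.36 and 4.81 points. In WT cells the interval also spans 0 without the 50 peaks that had a KLF4 interval over 500 bp (2.70 points, -2.74 to 8.68). The same holds without the 9 mostly soft-masked ones (4.91 points, -0.33 to 10.6).

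**Figure D3:**
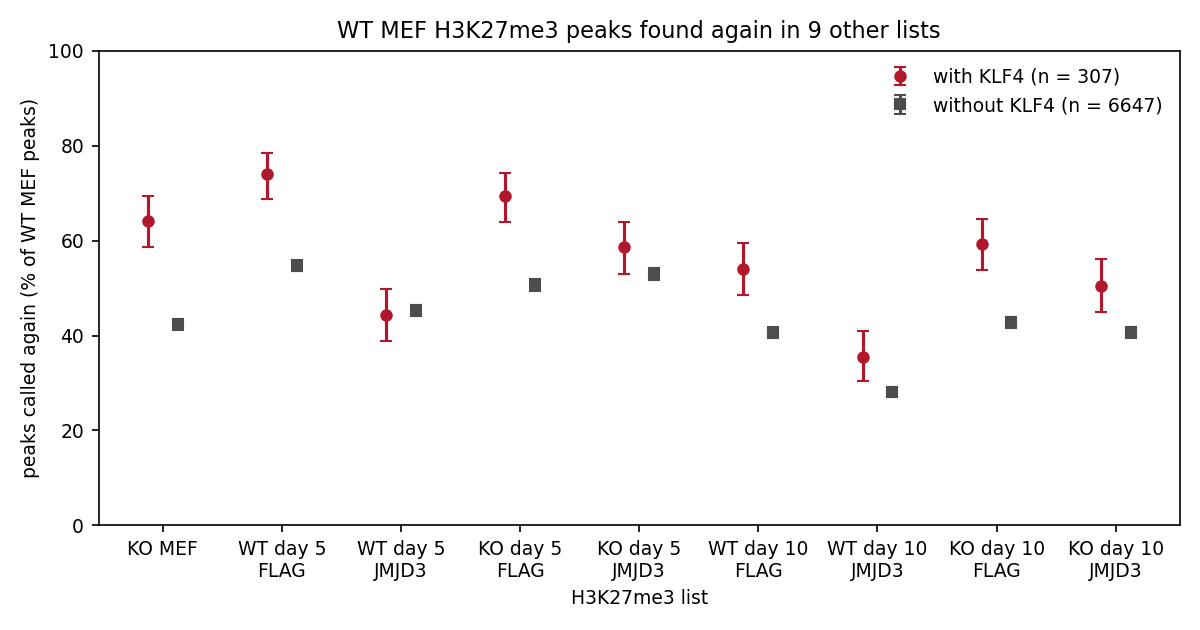
Percent of WT MEF peaks called again in each of 9 other H3K27me3 lists, for the 307 peaks with KLF4 (circles) and the 6647 without (squares), with 95% Wilson intervals. The circles lie above the squares in 8 lists; in WT day 5 cells with JMJD3 the values are 44.3% and 45.3%.

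The higher score of KLF4-overlapped peaks accompanied the excess. Averaged over quartiles of the MEF score, the day 5 WT difference was 10.6 points (4.48 to 16.3) with FLAG and -11.6 points (-16.2 to -5.46) with JMJD3. In the best quartile, 131 of 149 were called with FLAG (87.9% against 94.5%, a difference of -6.54 points, -12.8 to -2.06) and 93 of 149 with JMJD3 (62.4% against 86.8%, -24.4 points, -32.6 to -16.8). Within the better-scoring 50% of the MEF list, KLF4-overlapped peaks were called less often than others in all 4 JMJD3 lists, at day 5 by 17.2 points in WT and 10.8 points in KO cells. By quartile from lowest to highest score, the day 5 WT difference with FLAG was 22.1, 28.4, -1.40 and -6.54 points, so the excess lay in the lower-scoring peaks. In the better-scoring 50% the 4 FLAG differences ran from -3.34 to 0.396 points, with intervals that span 0. What part the score has in these differences was not tested.

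Of the peaks called with FLAG at day 5 in WT cells, those with KLF4 were more often absent from the JMJD3 list. The count was 97 of 227 (42.7%, 36.5 to 49.2), against 28.9% of the other MEF peaks and 29.7% of all, a difference of 13.8 points (7.38 to 20.5). Averaged over score quartiles it was 16.7 points (8.18 to 23.5). In the best quartile 40 of 131 were absent (30.5%) against 10.3%, 20.2 points (12.8 to 28.7) more. In KO cells 51 of 213 were absent (23.9% against 18.9%, with 19.2% of all), a difference of 5.08 points (-0.33 to 11.4). This value was 11.7 points (4.99 to 19.1) when all lists were reduced to a common length of 3045 peaks, and its interval lay above 0 also in the better-scoring 50% (8.27 points, 2.92 to 14.9), within 5 kb of a TSS (8.91 points, 2.95 to 15.9), and without the peaks that were mostly soft-masked (6.50 points) or had wide KLF4 intervals (7.80 points). As a mean over quartiles of CpG content it was 0.82 points (-6.95 to 13.0). At day 10 no difference was detectable over all peaks, with 70 of 166 absent in WT cells (42.2% against 43.1%, with 43% of all, a difference of -0.93 points, -8.42 to 6.90) and 42 of 182 in KO cells (23.1% against 26.1%, with 25.9% of all, a difference of -3.03 points, -8.80 to 3.79).

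The CpG content of the peaks moved with these shares. An average over quartiles of the CpG ratio, chosen after the data were seen, lowered the day 5 WT difference to 5.02 points (-3.75 to 16.5). It gave equal weight to the lowest quartile, which held only 8 KLF4-overlapped peaks, of which 1 was absent with JMJD3 (12.5%) against 54.0% of the others. In the highest quartile, with 160 of the 227, 63 were absent (39.4%, 32.1 to 47.1) against 15.1% of the other MEF peaks there and 17.6% of all, a difference of 24.2 points (16.7 to 32.2). The third quartile gave 28 of 50 (56.0%) against 27.8%. In the highest quartile the shares were also higher in KO cells at day 5 (35 of 154, 22.7% against 7.86%, with 9.39% of all), in WT cells at day 10 (57 of 124, 46.0% against 27.8%, with 29.5% of all) and in KO cells at day 10 (31 of 137, 22.6% against 10.7%, with 11.9% of all). These differences were 14.9 points (8.75 to 22.2), 18.1 points (9.21 to 27.2) and 12 points (5.49 to 19.8). At day 10 the other quartiles did not share this direction. In WT cells 9 of 29 were absent in the third quartile (31.0% against 45.5%), 4 of 6 in the second (66.7% against 67.6%) and 0 of 7 in the lowest (against 73.2%). In KO cells it was 8 of 32 (25% against 25.3%), 3 of 6 (50% against 51.5%) and 0 of 7 (against 60%). The mean over quartiles was therefore negative at day 10, at -17.6 points (-27.9 to -5.63) in WT and -12.5 points (-21.2 to 0.41) in KO cells.

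**Figure D4:**
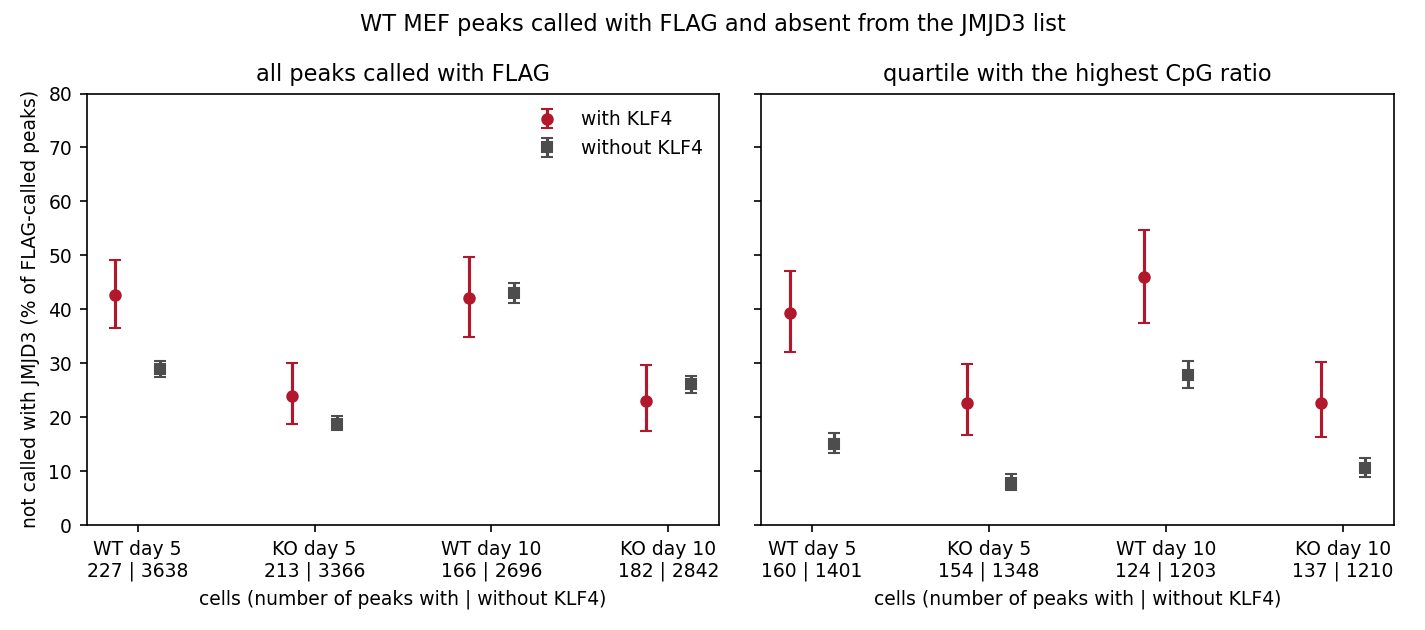
Percent of FLAG-called WT MEF peaks that were absent from the JMJD3 list of the same cells, for peaks with KLF4 (circles) and without (squares), with 95% Wilson intervals. The left panel takes all FLAG-called peaks and the right panel those in the highest quartile of the CpG ratio, where the day 5 WT values are 39.4% and 15.1%.

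Loss at day 5 was compared between genotypes at the 196 KLF4-overlapped peaks called with FLAG in both. Of these, 34 were absent with JMJD3 in both genotypes, 35 in WT cells only and 5 in KO cells only, while 122 kept the call in both. Among the 2899 other MEF peaks called with FLAG in both, the numbers were 254, 346, 115 and 2184. The difference between genotypes had no replicate and was not tested. Where the peak of a KLF4-overlapped region was called with both vectors, fewer peaks still covered the KLF4 interval with JMJD3 than with FLAG in all 4 comparisons, a count made after the data were seen. In WT cells at day 5 this held for 120 of 130 peaks with FLAG (92.3%) and 100 of 130 with JMJD3 (76.9%), with 22 peaks covering it with FLAG only and 2 with JMJD3 only. In KO cells at day 5 it was 139 and 127 of 162, with 20 and 8. At day 10 the numbers were 81 and 78 of 96 in WT cells, with 12 peaks covering it with FLAG only and 9 with JMJD3 only. In KO cells at day 10 they were 120 and 110 of 140, with 16 and 6. In the MEF list this overlap was fixed by the rule.

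Few KLF4-overlapped peaks appeared with JMJD3 where FLAG had none. At day 5 this was seen in 6 of 80 in WT cells (7.5% against 14.1%, with 14% of all, a difference of -6.62 points, -10.8 to 1.38) and 18 of 94 in KO cells (19.1% against 24%, with 23.9% of all). At day 10 it was 13 of 141 in WT cells (9.22% against 8.35%, with 8.38% of all) and 15 of 125 in KO cells (12% against 15.9%, with 15.8% of all). The most common pattern over the 4 WT lists was a call in all of them, at 72 peaks (23.5% against 20.1% of the other MEF peaks and 20.2% of all). At 66 peaks there was no call in any of the 4 (21.5% against 35%, with 34.4% of all), at 43 there was a call only at day 5 with FLAG (14% against 9.12%, with 9.33% of all), and at 32 only with FLAG on both days (10.4% against 3.90%, with 4.18% of all). Of the 97 peaks absent with JMJD3 at day 5 in WT cells, 22 were called with JMJD3 at day 10, against 82 of the 130 that had kept the call and 35.5% of all KLF4-overlapped peaks.

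Loss with JMJD3 did not differ detectably by the KLF4 list in which a peak was found. At day 5 in WT cells 47 of 98 peaks with KLF4 in both lists were absent (48%) and 47 of 115 with KLF4 only in the JMJD3-cell list (40.9%), a difference of 7.09 points (-6.18 to 20.1). At day 10 with FLAG, peaks with KLF4 in both lists were called less often in WT cells, at 65 of 140 (46.4%) against 91 of 148 (61.5%), a difference of -15.1 points (-26.0 to -3.54). Their median MEF scores were 23.3 and 25.6. Within the KLF4-overlapped peaks, distance to the TSS separated the FLAG calls at day 5. Of the 203 within 1 kb, 160 were called in WT cells (78.8%), against 67 of the 104 farther away (64.4%), 14.4 points (3.89 to 25.2) apart, and in KO cells the shares were 75.9% and 56.7%, 19.1 points (8.03 to 30.1) apart.

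JMJD3 itself was found inside some of these peaks. A position of FLAG-JMJD3 in OSKM cells lay inside 48 of 307 (15.6%, 12 to 20.1), against 34 of 6647 other MEF peaks (0.512%) and 1.18% of all. Within 1 kb it was 68 (22.1%, 17.9 to 27.1) against 2.09%, with 2.98% of all, a difference of 20.1 points (15.8 to 25). Farther out no excess was detectable. A nearest position between 1 and 5 kb away was found for 15 peaks (4.89% against 5.85%, a difference of -0.97 points, -2.96 to 2.10). With OSlowKM, a position lay inside 6 of 307 (1.95%) against 2 of 6647 (0.030%), with 0.115% of all. The peaks at Sox2 and Klf4 were among these 6 and also among the 48. Both genes are carried by the viruses, so the limit on reads from viral copies applies to these positions too. Positions inside were found at 30 of 140 peaks with KLF4 in both lists (21.4%) and 15 of 148 with KLF4 only in the JMJD3-cell list (10.1%), 11.3 points (2.88 to 19.8) apart.

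KLF4 on the MEF mark was accompanied by JMJD3 less often than KLF4 elsewhere. Of the 318 KLF4 intervals in these peaks, 60 had a JMJD3 position within 400 bp of the midpoint (18.9%, 15.0 to 23.5), against 5057 of 15700 intervals outside MEF peaks (32.2%) and 31.9% of all. The difference was -13.3 points (-17.3 to -8.62). With OSlowKM it was 6 of 318 (1.89%) against 4.40%, with 4.35% of all. The KLF motif, shown above at Bmp8b, Cdkn1c and Cbx7, did not differ detectably in frequency with all 4 forms counted: it was present within 100 bp in 99 of 318 (31.1%, 26.3 to 36.4) and 33.7%, with 33.7% of all and a difference of -2.61 points (-7.50 to 2.73). Without the form that is also a GC box, the other 3 forms were less frequent in the peaks, at 44 of 318 (13.8%) against 3324 of 15700 (21.2%) and 21% of all, a difference of -7.34 points (-10.8 to -3.06). With all 4 forms counted, the motif was present in 1.73% of windows of the same length placed 2 kb to each side. At the centres of other MEF peaks it was present in 3.05% of such windows. These windows were not matched for GC content. Counting 1 interval per peak, the form GGGCGGGGC was present in 61 of 307 windows, GGGTGGGGC and GGGCGTGGC in 18 each and GGGTGTGGC in 9. More of the intervals in the peaks were called only in cells with JMJD3 (149 of 318, 46.9% against 34.0%, with 34.3% of all), 12.8 points (7.35 to 18.4) more. Interval widths had medians of 308 bp and 304 bp.

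The 48 peaks with JMJD3 inside were called less often than the 259 without in all 9 other lists, with an interval that spans 0 in KO MEFs only. At day 5 with FLAG, 22 of 48 were called in WT cells (45.8% against 79.2%, a difference of -33.3 points, -47.3 to -18.4) and 17 of 48 in KO cells (35.4% against 75.7%). With JMJD3 they were 5 of 48 (10.4% against 50.6%) and 9 of 48 (18.8% against 66%). In KO MEFs, before any OSKM, 26 of 48 were called (54.2% against 66%, a difference of -11.9 points, -26.8 to 2.68). Their MEF scores had a median of 19.3 against 26.1, and within the better-scoring 50% the day 5 WT shares with FLAG were 17 of 32 (53.1%) and 163 of 190 (85.8%). Of the 22 called with FLAG at day 5 in WT cells, 17 were absent with JMJD3 (77.3%, 56.6 to 89.9), against 80 of 205 (39.0%), 38.2 points (16.4 to 52.4) more. In KO cells it was 9 of 17 against 42 of 196, 31.5 points (8.66 to 53.0) more. In WT cells at day 10 no difference was detectable, with 5 of 13 against 65 of 153 (a difference of -4.02 points, -26.2 to 23.1), and in KO cells it was 6 of 13 against 36 of 169, 24.9 points (0.93 to 50.2) more. Of the 48, 21 were in no day 5 or day 10 list, against 29 of the 259. This was not counted over all MEF peaks, of which 34.4% had no call in the 4 WT lists of these days. Among the MEF peaks without KLF4, 34 had JMJD3 inside. Of these, 12 were called at day 5 with FLAG in WT cells (35.3% against 54.8% of those without, a difference of -19.5 points, -33.4 to -2.70) and 4 with JMJD3 (11.8% against 45.5%). Their shares were lower in all 8 lists after OSKM, with intervals that span 0 for KO day 5 FLAG (-12.5 points, -26.9 to 4.30) and KO day 10 JMJD3 (-14.3 points, -26.2 to 2.41), and 44.1% against 42.4% in KO MEFs.

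**Figure D5:**
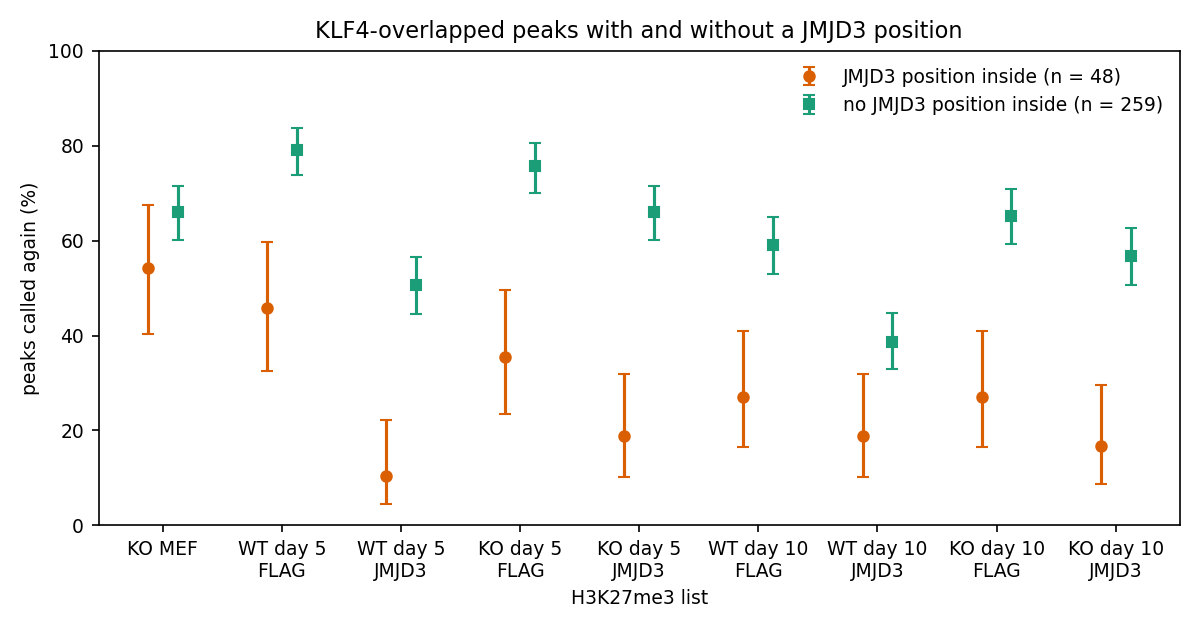
Percent of KLF4-overlapped peaks called in each of 9 H3K27me3 lists, for the 48 with an OSKM JMJD3 position inside (circles) and the 259 without (squares), with 95% Wilson intervals. The circles lie below the squares in all 9 lists, at 10.4% and 50.6% in WT day 5 cells with JMJD3.

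Among these 48, peaks with no or few calls after OSKM had MEF scores from high to low. Podxl (chr6:31563069-31564068, intronic, 412 bp downstream of the TSS, score 71.7, JMJD3 at 31564045) was called in both MEF lists and in none of the 8 later ones. The same pattern was found for the peak 9695 bp downstream of Gsx2 (score 49.6), a homeobox gene of the forebrain, for one in an intron of Zfhx3 (score 44.5), a large homeobox and zinc-finger factor, for Fam222a (score 34.9) and for Perp (score 13.6), a membrane protein of desmosomes. Hes3 (chr4:152290657-152291656, score 64.9, JMJD3 at 152290742) and Selenov (score 49.9), a selenoprotein gene, were called in addition at day 5 with FLAG in WT cells only. Atp12a, a proton pump subunit (chr14:56364539-56365538, 29 bp upstream of the TSS, score 75.7, JMJD3 at 56364716), was called at day 5 with FLAG in WT cells and in no other list than WT MEFs. Eya2 (intergenic, upstream of the TSS, score 53.6), a transcriptional coactivator and phosphatase of the Eya family, was called with FLAG at day 5 in both genotypes and in no day 10 list. In contrast Hhex (chr19:37434552-37435551, exonic, score 45.8) was called in all 8 lists after OSKM though not in KO MEFs, and Cnpy1 (score 40.4) in all of them but the WT day 5 list with JMJD3.

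Some peaks stayed in every list, and several with the highest scores or widest KLF4 peaks were rich in repeats. All 10 H3K27me3 lists held a call at 64 KLF4-overlapped peaks (20.8% against 14.7% of the other MEF peaks and 14.9% of all), and 32 were called in WT MEFs only (10.4% against 23.0%, with 22.5% of all). The highest MEF scores, 200 each, were found at 4 of the 10 peaks in the whole list with that value: Aida, CT010467.1, Gm10800 and Gm33838. The peak in Gm10800 (chr2:98666315-98667314) was 85.7% soft-masked, the one near Gm33838 58.8%, the one at CT010467.1 (chr17:39848459-39849458) 30.5% and the one at Aida 16.9%. CT010467.1 is annotated as an rRNA gene, and its peak lay 132 bp from that TSS. The KLF4 intervals of these 4 peaks were wide, at 1121 bp in the FLAG list for Gm10800 and 1239 bp for CT010467.1. The widest, 3959 bp with FLAG and 3963 bp with JMJD3, covered the peak at Gm21738 (chr14:19417489-19418488), which was 89.7% soft-masked. All 5 of these peaks were in all 10 lists. The next scores were at Gm37714 beside Celsr3 (177), at an exon of Grin2d (157, nearest TSS Grwd1), at Tlx2 (154), a homeobox gene of neural crest, and at Rtbdn (154) and Gsc2 (139), a goosecoid-related homeobox gene, and these 5 were at most 16.6% soft-masked. All of them but Tlx2, with 9, were in all 10 lists. The 9 peaks that were mostly soft-masked, named after their values were seen, lay nearest to Gm10800, Gm33838, Sfi1, Gm10801, Gm21738, Fau-ps2 and Gm15247, all in 10 lists, and 2 to Pisd-ps1. Among the 32 called in WT MEFs only, the highest scores were 27.4 at Nova2, a neuronal splicing factor, and 26.8 at Hrh1, a histamine receptor, and the group also held Dll4 (15.1), a Notch ligand, and Nrarp (13.5), a Notch target.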

How the data were processed

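Peak lists for H3K27me3, KLF4 and FLAG-JMJD3 came from 14 mouse libraries, and the other 6 samples (4 inputs, 2 for H3K27ac) were not used here. Reads had been aligned to mm10 (Bowtie2 2.2.0 and MACS2 in the submitters' processing notes). The study's methods give DFilter as the H3K27me3 peak caller and MACS2 as that of the other 2 targets. A Drosophila spike-in accompanied H3K27me3. Since its use in peak calling is not stated, a lost call is not a measured loss of the mark. Each deposited H3K27me3 interval carries a score of unstated scale that the authors obtained in peak calling, used here for ranking alone. KLF4 lists give intervals and JMJD3 lists single positions. Library depth was not analysed here.

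Peaks were called again where an overlap of at least 1 bp was found. TSSs came from GENCODE M21 basic and sequence from GRCm38.p6, which has the coordinates of mm10. Peaks bear the name of the gene with the nearest TSS, or of a listed gene with a TSS within 5 kb. Named were peaks of listed genes, the 10 highest MEF scores, peaks with a JMJD3 position inside, up to 10 each by score of those called in all 10 lists and in WT MEFs only, and the 5 with the widest KLF4 peak. The text gives examples of these. The members and gene lists were chosen with earlier results of these data known. Overlaps were checked against bedtools 2.31.1 and functions tested on simulated data. Scripts ran under Python 3.11.15 with pysam 0.24.0 (samtools 1.23.1), scipy 1.17.1 and numpy 2.4.6.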

Additional observations from a re-analysis of the deposited data

How the results depend on the processing

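With 1 library per group, no replicate could be left out, and no paired analysis was possible because no result comes from a test and no group has a second replicate. Of 188 recomputed differences, 21 had another sign than the reported one, 6 of them where the reported interval did not span 0. In 22 the interval came to span 0 and in 12 it no longer did, and the cause was not tested. Of the 22, 21 concern how often peaks were called again and 1 the WT day 5 loss as a mean over CpG quartiles. The number of KLF4-overlapped peaks was 475 with KLF4 within 500 bp, 167 with the wider 50% of each KLF4 list and 147 with KLF4 peaks present in both lists. These 147 needed a KLF4 peak that overlapped one of the other list, even where only 1 of them reached the MEF peak. They are the set of the recomputed differences with KLF4 in both lists. The 140 above had a peak of each list on the MEF peak. Differences in calls, with KLF4 minus without, follow in points for KO MEFs, WT and KO day 5, and WT and KO day 10. As means over score quartiles they were 7.30 (KO MEFs), then 10.6 with FLAG and -11.6 with JMJD3, 8.59 and -4.74, 4.43 and 1.74, and 7.17 and 1.57. In the better-scoring 50% of the MEF list they were 8.22, then -0.0864 and -17.2, 0.396 and -10.8, -3.34 and -8.25, and -0.727 and -8.89, in the same order. Among peaks within 5 kb of a TSS they were 12.6, then 8.78 and -10.5, 9.36 and -2.83, 5.34 and -0.844, and 6.88 and 0.346. As means over CpG quartiles, chosen after seeing the data, those that moved were 15.6 in KO MEFs, 7.04 for WT day 5 FLAG, 7.85 and -2.25 for KO day 5 FLAG and JMJD3, 4.36 for WT day 10 FLAG and 4.81 for KO day 10 FLAG. With KLF4 in both lists they were 12.7 and -1.51 for KO day 5 FLAG and JMJD3, 5.21 for WT day 10 FLAG and 8.39 for KO day 10 FLAG. All alternatives for loss with JMJD3 were added after seeing the data. Loss differed by 5.02 (WT day 5), -17.6 (WT day 10) and -12.5 (KO day 10) points as means over CpG quartiles, by -9.65 (WT day 10) over score quartiles and by 11.7 (KO day 5) with lists of one length. The lowest CpG quartile, with 8 KLF4-overlapped peaks at day 5 in WT cells, counts as much as the highest in these means. The TSS difference was 37.2 points at 1 kb and 15.3 at 10 kb, that of JMJD3 positions 15.1 inside the peak, and that of KLF4 intervals with JMJD3 -17.8 at 1 kb. Leaving out the 3 peaks at Pou5f1, Sox2 and Klf4, whose genes the vectors carry, also chosen after seeing the data, moved no difference beyond its reported interval.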
